A study of Homo sapiens with 6 samples.

Results

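The miR-25, miR-32 and miR-92 seed family was examined in immunoprecipitated and total RNA of a lung cancer cell line. Its 9 members were taken by name from the 2588 mature miRNAs that both count tables listed. They were 5 miRNAs with the same seed (hsa-miR-92a-3p, hsa-miR-92b-3p, hsa-miR-25-3p, hsa-miR-32-5p and hsa-miR-363-3p) and 4 passenger arms from the opposite strand of their hairpins (hsa-miR-92a-1-5p, hsa-miR-92b-5p, hsa-miR-25-5p and hsa-miR-32-3p). The question was how m7G antibody enrichment differed among miRNAs that share a seed but come from different hairpins and clusters.

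Small RNA was sequenced from A549, a human lung adenocarcinoma line, in 3 libraries of total RNA (the input) and 3 libraries of RNA captured with an antibody against N7-methylguanosine (m7G-RIP). Both groups carried a doxycycline-inducible knockdown of METTL1, an m7G methyltransferase, and both were collected on day 5 of doxycycline at 200 ng/ml. Libraries from cells with intact METTL1 or from an IgG control were not analysed here, so the data compare captured with input RNA and do not measure what METTL1 does. The growth text of the m7G-RIP samples names the medium of another line, Caco-2, and their titles and cell line labels, which say A549, were followed. Nothing in the labels says that replicates were separate cultures, so p-values measure the spread between these libraries, which may be technical. Total RNA and m7G-RIP were deposited as separate sets of samples and counts. Any difference in preparation or sequencing between these sets cannot be told apart from capture in the ratios below.

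A miRNA finds its targets mainly through the seed, bases 2 to 8 from its 5′ end, so members of a seed family share many predicted targets. Each hairpin can yield a mature miRNA from either arm, and the arm loaded less often is called the passenger. miR-92a belongs to the oncogenic miR-17-92 cluster, miR-25 to the miR-106b-25 cluster inside the DNA replication gene MCM7, and miR-363 and a second copy of miR-92a to the miR-106a-363 cluster on the X chromosome. N7-methylguanosine is a methylated G best known from mRNA caps and tRNAs.

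The mature sequences are shown because the members differ outside the seed, which is in capitals (RefSeq, GRCh38.p14).
hsa-miR-92a-3p: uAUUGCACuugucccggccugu
hsa-miR-92b-3p: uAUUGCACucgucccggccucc
hsa-miR-25-3p: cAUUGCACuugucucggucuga
hsa-miR-32-5p: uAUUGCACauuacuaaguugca
hsa-miR-363-3p: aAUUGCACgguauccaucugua
The passenger arms have 4 different seeds, also in capitals. All but hsa-miR-32-3p hold a larger share of G than any member with the shared seed. hsa-miR-32-3p, at 22.7% G, equals hsa-miR-92a-3p and hsa-miR-25-3p and exceeds its partner hsa-miR-32-5p, at 13.6%.
hsa-miR-92a-1-5p: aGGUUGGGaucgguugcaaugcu
hsa-miR-92b-5p: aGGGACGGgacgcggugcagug
hsa-miR-25-5p: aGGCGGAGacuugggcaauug
hsa-miR-32-3p: cAAUUUAGugugugugauauuu

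Against hsa-miR-92a-3p, hsa-miR-92b-3p differed at 3 of 22 positions (U10C, G21C and U22C, counted from the 5′ end, miR-92a-3p base first). hsa-miR-25-3p differed at 4 positions (U1C, C14U, C18U and U22A). hsa-miR-32-5p differed at 11 positions and hsa-miR-363-3p at 12, all of them outside the seed. A sixth miRNA with this seed, hsa-miR-367-3p, is an embryonic stem cell miRNA from another cluster. It had 0 counts in all 6 libraries, and 3 counts would have been 0.0994 CPM (counts per 1000000 counts) in pooled total RNA and 0.352 CPM in pooled m7G-RIP.

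The members came from 6 hairpins, given in GRCh38 with the overlapping GENCODE annotation on the same strand. MIR92A1 lies at chr13:91351314-91351391 on the plus strand and overlaps an exon of the long noncoding RNA MIR17HG. MIR92A2 at chrX:134169538-134169612 and MIR363 at chrX:134169378-134169452, both on the minus strand, overlap exons of a long noncoding RNA without a symbol. MIR92B at chr1:155195177-155195272 on the plus strand overlaps an exon of the long noncoding RNA THBS3-AS1. MIR25 at chr7:100093560-100093643 and MIR32 at chr9:109046229-109046298, both on the minus strand, lie in introns of MCM7 and of TMEM245. The mature hsa-miR-92a-3p is identical from MIR92A1 and MIR92A2, so its counts could not be split between them. hsa-miR-92a-2-5p, the other arm of MIR92A2, had 0 counts in all 6 libraries.

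The 3 total RNA libraries held 9155690 to 10753443 counts and the 3 m7G-RIP libraries 2649238 to 3106556, so a count of 1 weighed more in m7G-RIP. Of 2588 miRNAs, 620 passed the expression filter, and edgeR called 146 enriched (23.5%) and 181 depleted (29.2%) in m7G-RIP at an adjusted p under 0.05. The median log2 ratio of the 620 was -0.07. The most abundant miRNA of total RNA, miR-21-5p, took 47.4% ± 2.48 of its counts (SD, n = 3) and 4.92% of m7G-RIP. How much RNA the antibody recovered is unknown, so a ratio places a miRNA only against the rest of its own libraries. Scaling by library size alone moved the median log2 ratio by 0.55, and directions that turned with it are named below. The embryonic cluster miRNAs miR-371a-5p and miR-373-3p were at 0 in all 6 libraries and miR-372-3p had at most 3 counts. The intestinal miRNAs miR-192-5p, miR-194-5p and miR-215-5p, which cells with intact p53 also express, were detected in both groups. Scaled by the trimmed mean of M values (TMM), miR-192-5p stood at 21121 to 21591 CPM in total RNA and 2790 to 3107 CPM in m7G-RIP. The Caco-2 growth text concerns the m7G-RIP group, so a difference in cell line between the groups could not be told apart from capture. The part of any cell mixture in the members' values was not tested.

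All 9 members passed the filter, 2 of them (hsa-miR-32-5p and hsa-miR-363-3p) only through their total RNA levels. In m7G-RIP 5 members were enriched, against a background of 23.5%, 1 was depleted, against 29.2%, and 3 did not pass the test. The enriched members were 2 of the 5 with the shared seed and 3 of the 4 passenger arms. The depleted member, hsa-miR-32-5p, was 1 of those 2 that passed through total RNA, where it was high, so the filter itself favours a low ratio and its call is given as a description. Among the 3 members with the shared seed that passed in both groups, log2 ratios ran from -0.14 for hsa-miR-25-3p to 1.59 for hsa-miR-92b-3p. Log2 ratios are m7G-RIP over total RNA, with standard errors (SE) in parentheses where given, and levels are TMM-scaled CPM. Each SE was derived from the edgeR F test, as the absolute log2 ratio divided by the square root of F, and is approximate.

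**Figure D1:**
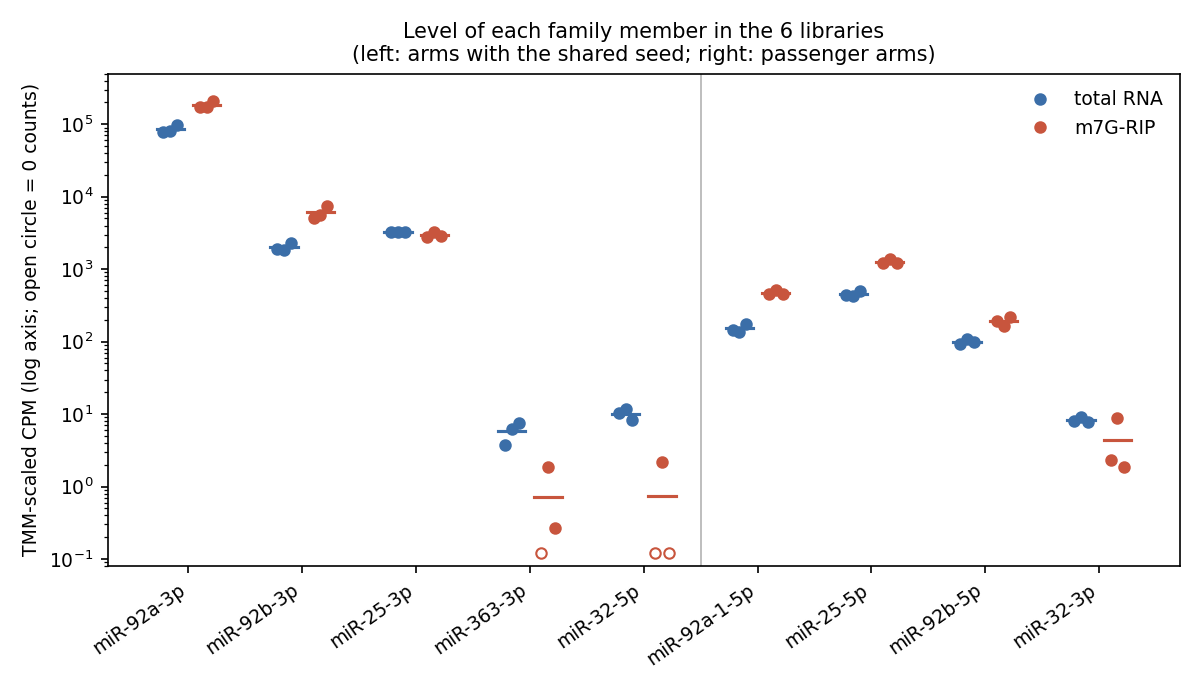
Level of each member in each library (TMM-scaled CPM, log axis; blue, 3 total RNA libraries; red, 3 m7G-RIP libraries; bars, group means; open circles, 0 counts). miR-92a-3p stands at 78692 to 206814 CPM in all 6 libraries, while miR-32-5p and miR-363-3p are at 0 in some of the m7G-RIP libraries.

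hsa-miR-92a-3p, the most abundant member, was enriched. Its level was 78692, 79614 and 97307 CPM in total RNA and 174022, 174257 and 206814 CPM in m7G-RIP. All 3 captured libraries lay above all 3 input libraries. The mean rose from 85204 ± 10491 to 185031 ± 18865 CPM (SD, n = 3 each), 2.17-fold. The log2 ratio was 1.12 (SE 0.12, adjusted p = 5.33e-05 by edgeR). It was the third most abundant miRNA of total RNA and the most abundant miRNA of m7G-RIP.

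hsa-miR-92b-3p, the product of a separate hairpin on chromosome 1, was enriched as well. It stood at 1877, 1844 and 2324 CPM in total RNA and at 5150, 5567 and 7456 CPM in m7G-RIP. The groups did not overlap, and m7G-RIP replicate 3 was the highest of the 6. The log2 ratio was 1.59 (SE 0.16, edgeR adjusted p = 3.88e-05), a 3.01-fold difference between group means.

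hsa-miR-25-3p, from the intron of MCM7, was not called in either direction. Its levels were 3245, 3254 and 3301 CPM in total RNA and 2765, 3261 and 2853 CPM in m7G-RIP. The groups overlapped, since m7G-RIP replicate 2 lay inside the narrow range of total RNA. At -0.14 (SE 0.10, edgeR adjusted p = 0.266), the log2 ratio depended on the scaling. It turned to 0.41 (adjusted p = 0.00304) with library size alone and to 0.31 (adjusted p = 0.0136) with library sizes taken without the 10 most abundant miRNAs, settings that moved the median of all miRNAs by 0.55 and 0.45. Without m7G-RIP replicate 1, 2 or 3 it was -0.31, -0.39 and -0.34, and was called depleted each time (adjusted p = 0.0275, 0.0111 and 0.0248). Those fits tested 773, 778 and 756 miRNAs in place of 620, and their median of all miRNAs moved by -0.17, -0.26 and -0.33. With all libraries in and no filter on low counts, hsa-miR-25-3p was also called depleted, at -0.42 (edgeR adjusted p = 0.00501). That fit tested 1469 miRNAs, and their median moved by -0.72. A depletion of hsa-miR-25-3p apart from these shifts was not tested.

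hsa-miR-32-5p, the guide arm from the TMEM245 intron, was scarce. It had 91, 98 and 63 counts in total RNA and 0, 7 and 0 counts in m7G-RIP. All m7G-RIP counts came from replicate 2, and every m7G-RIP library lay below every total RNA library. Pooled over libraries, without TMM scaling, this was 8.35 CPM in total RNA (95% exact Poisson interval 7.35 to 9.45) and 0.822 CPM in m7G-RIP (0.330 to 1.69). Such intervals cover counting error only, not the spread between libraries. Because PCR reads carried no molecular identifiers, they may be too narrow even for that. The fit gave a log2 value of -3.79 (SE 1.24, edgeR adjusted p = 0.0281) for a miRNA that entered it through total RNA alone. Without total RNA replicate 1, 2 or 3 the value was -3.85, -3.75 and -4.04 and the call was lost (adjusted p = 0.0590, 0.0531 and 0.0548). Without m7G-RIP replicate 2 both remaining m7G-RIP libraries were at 0, and the fitted -9.05 (adjusted p = 0.00145) depends on the prior count and is no bound.

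hsa-miR-363-3p, the X-linked member, was also scarce. It had 33, 52 and 57 counts in total RNA and 0, 6 and 1 counts in m7G-RIP. The groups did not overlap. Pooled unscaled levels were 4.71 CPM (95% exact Poisson interval 3.96 to 5.55) and 0.822 CPM (0.330 to 1.69). The log2 ratio was -3.01 (SE 1.13, edgeR adjusted p = 0.0501), just outside the threshold. It passed the threshold in 5 of 9 alternatives that kept all libraries, and without m7G-RIP replicate 2, where the fitted value moved to -5.35 (adjusted p = 0.00985) with 0 and 1 counts left. Like hsa-miR-32-5p, it entered the fit through total RNA alone.

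Among the passenger arms, hsa-miR-92a-1-5p, which pairs with miR-92a-3p in MIR92A1, was enriched. Its levels were 144.7, 137.4 and 173.7 CPM in total RNA and 449.5, 512.3 and 455.1 CPM in m7G-RIP, with no overlap between the groups. Its log2 value of 1.64 (SE 0.15, edgeR adjusted p = 1.77e-05), 3.11-fold, was the highest in the family, within 1 SE of that of hsa-miR-92b-3p.

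hsa-miR-25-5p, the passenger of miR-25-3p, was enriched although its partner arm was not called. It measured 434.2, 420.3 and 503.2 CPM in total RNA and 1215, 1369 and 1198 CPM in m7G-RIP. Every captured library lay above every input library. The log2 ratio was 1.48 (SE 0.12, edgeR adjusted p = 9.91e-06), 2.78-fold.

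hsa-miR-92b-5p, the most G-rich member, was enriched by less. It stood at 92.4, 107.1 and 98.1 CPM in total RNA and at 195.0, 162.0 and 219.8 CPM in m7G-RIP, without overlap. The log2 ratio was 0.95 (SE 0.18, edgeR adjusted p = 0.0016), 1.94-fold.

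hsa-miR-32-3p, the passenger from MIR32, was not called. It had 71, 76 and 59 counts in total RNA and 8, 28 and 7 counts in m7G-RIP, or 7.76 to 9.03 CPM against 1.87 to 8.79 CPM. The groups overlapped through m7G-RIP replicate 2 alone. The log2 ratio was -0.93 (SE 0.75, edgeR adjusted p = 0.318), and without m7G-RIP replicate 2 it was -2.13 (adjusted p = 0.0254).

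**Figure D2:**
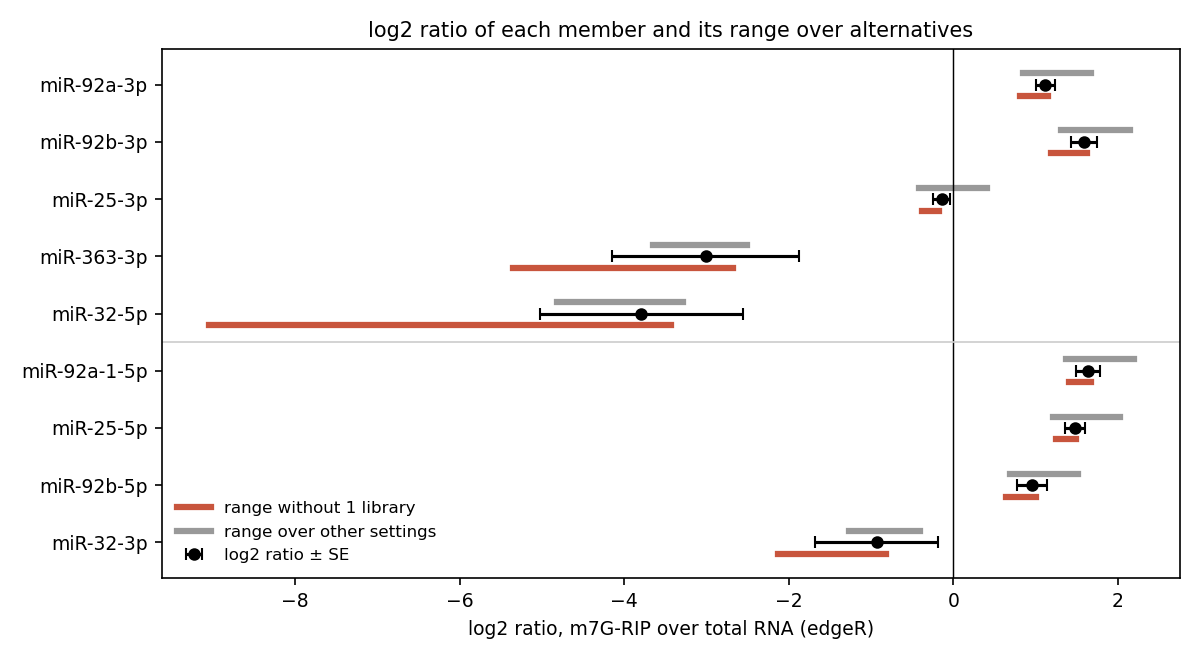
Log2 ratio of m7G-RIP over total RNA for each member (points with SE derived from the edgeR F test), with its range over other settings (grey) and without 1 library (red). The upper 5 share the seed. The 5 enriched members stay above 0 in every setting, miR-25-3p spans -0.42 to 0.41, and the long red bar of miR-32-5p comes from a fit in which its remaining m7G-RIP counts were 0.

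Ratios between members within a library do not depend on scaling, and 8 were compared. None overlapped between the groups, but neither did the ratio of 59% of all 191890 pairs of tested miRNAs, so separation was common. For 5 of the 8 both miRNAs had at least 10 counts in each library, and 72.9% of such pairs did not overlap. A two-sided exact permutation test gave p = 0.1 for each, its lower limit with 3 libraries a group, and 0.1 after adjustment over the 8. Counts of hsa-miR-25-3p per 100 of hsa-miR-92a-3p were 4.12, 4.09 and 3.39 in total RNA and 1.59, 1.87 and 1.38 in m7G-RIP. This put miR-25-3p 2.41-fold lower relative to miR-92a-3p in the captured RNA (log2 difference -1.27, lowest -1.58 and highest -0.86 over pairs of libraries), for 2 miRNAs that differ at 4 bases. Counts of hsa-miR-92b-3p per 100 of hsa-miR-92a-3p were 2.39, 2.32 and 2.39 in total RNA and 2.96, 3.19 and 3.61 in m7G-RIP (log2 difference 0.46, from 0.31 to 0.64). With 0.5 added to each count, the log2 difference relative to miR-92a-3p was -5.92 for hsa-miR-32-5p and -4.63 for hsa-miR-363-3p. Over pairs of libraries these ran from -7.83 to -2.67 and from -6.53 to -2.04, and the values at 0 counts depend on the amount added.

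Arms of 1 hairpin also differed from each other. hsa-miR-25-5p counts per 100 of hsa-miR-25-3p were 13.4, 12.9 and 15.2 in total RNA and 43.9, 42.0 and 42.0 in m7G-RIP, a log2 difference of 1.63 (from 1.46 to 1.77), 3.09-fold. hsa-miR-92a-1-5p counts per 100 of hsa-miR-92a-3p were 0.184, 0.173 and 0.178 in total RNA and 0.258, 0.294 and 0.220 in m7G-RIP (log2 difference 0.52, from 0.26 to 0.77). For MIR92B the order was the other way. hsa-miR-92b-5p counts per 100 of hsa-miR-92b-3p were 4.92, 5.81 and 4.22 in total RNA and 3.79, 2.91 and 2.95 in m7G-RIP (log2 difference -0.63, from -0.996 to -0.16). For MIR32 the 3p arm gained on the 5p arm by 3.58 on the log2 scale (from 2.02 to 4.45), or by 2.34 with 2 in place of 0.5 added to each count.

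**Figure D3:**
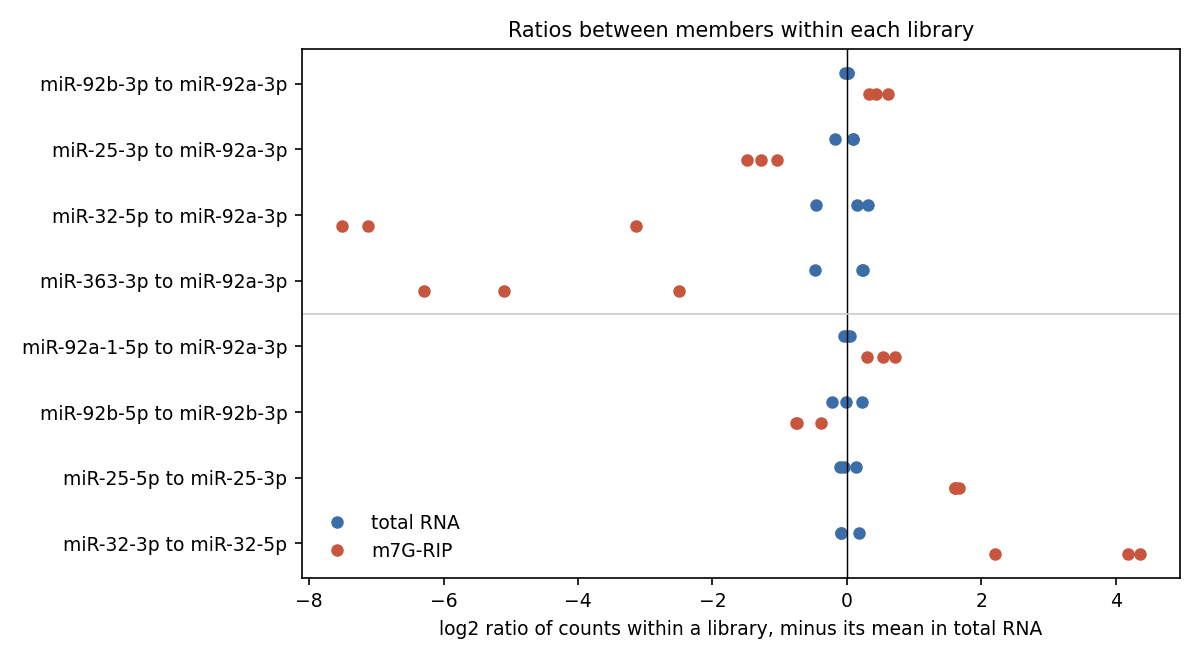
Log2 ratio of 2 members within each library, minus the mean of the 3 total RNA libraries (blue, total RNA; red, m7G-RIP; 0.5 added to each count). The groups separate for all 8 ratios, as they do for 59% of all pairs of tested miRNAs; the red points lie close together for miR-25-5p to miR-25-3p and are widely spread for the 3 ratios with miR-32-5p or miR-363-3p, which hold 0 counts in m7G-RIP.

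The 5 miRNAs with the shared seed made up 6.91%, 6.95% and 8.55% of all miRNA counts in total RNA and 23.3%, 21.1% and 26.1% in m7G-RIP. The means were 7.47% ± 0.938 and 23.5% ± 2.51 (SD, n = 3 each), 3.15-fold. With miR-21-5p left out of the totals they were 14.2% ± 1.09 and 24.7% ± 2.63, 1.75-fold. hsa-miR-92a-3p supplied 94.1% of the seed family's counts in total RNA and 95.4% in m7G-RIP. The share of hsa-miR-92b-3p was 2.22% ± 0.0423 and 3.10% ± 0.306, and that of hsa-miR-25-3p 3.64% ± 0.375 and 1.54% ± 0.234. The second place in the seed family went from miR-25-3p in every total RNA library to miR-92b-3p in every m7G-RIP library.

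G content was set beside the log2 ratios because the antibody recognises a methylated G. The enriched passenger arms held 39.1% G (hsa-miR-92a-1-5p), 42.9% G (hsa-miR-25-5p) and 54.5% G (hsa-miR-92b-5p), against a median of 27.8% over the 557 of 620 tested miRNAs with a sequence. Among miRNAs with the shared seed, hsa-miR-92a-3p and hsa-miR-25-3p both held 22.7% G, and their log2 ratios were 1.12 and -0.14. hsa-miR-92b-3p and hsa-miR-363-3p both held 18.2% G, with log2 ratios of 1.59 and -3.01. The lowest G content, 13.6%, belonged to hsa-miR-32-5p. The value of hsa-miR-363-3p rests on 7 m7G-RIP counts and was not called, so the second pair is given as values only.

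Over the 557 miRNAs, which share the same 6 libraries, G content and log2 ratio had a Pearson r of 0.41 and a Spearman rho of 0.44. For C content r was -0.09 and rho -0.19, and r was -0.21 for A and -0.20 for U. Combined G and C content ranged in the family from 27.3% (hsa-miR-32-3p) and 31.8% (hsa-miR-32-5p) to 63.6% (hsa-miR-92b-3p) and 72.7% (hsa-miR-92b-5p). By the same measure, the 78 tested miRNAs under 40% had a median log2 ratio of -0.97 and the 159 at 60% or more one of 0.91. hsa-miR-25-3p (50%) and hsa-miR-92a-3p (54.5%) fell in the 50% to 60% range, where the median of 180 miRNAs was 0.08.

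**Figure D4:**
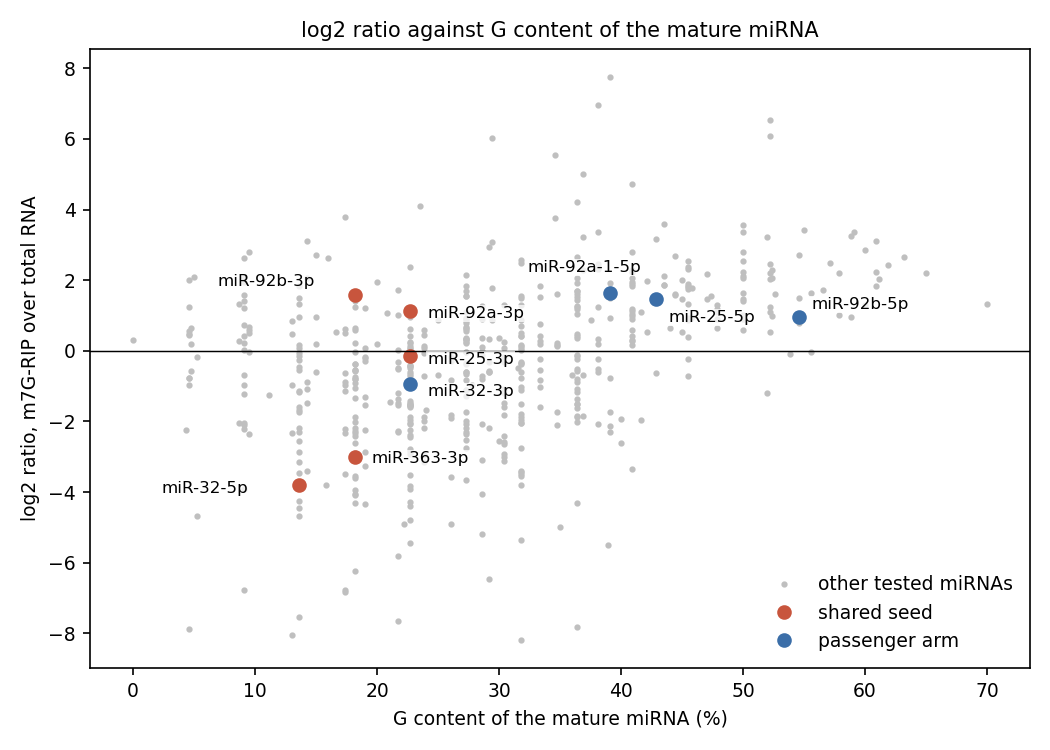
Log2 ratio of m7G-RIP over total RNA against G content of the mature miRNA, in percent, for 557 tested miRNAs (grey; red, members with the shared seed; blue, passenger arms). miR-92a-3p, miR-25-3p and miR-32-3p share 22.7% G with log2 ratios of 1.12, -0.14 and -0.93, and the 3 enriched passengers lie at 39.1% to 54.5%.

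The hairpins of the members also differed in runs of G. MIR92B and MIR25 are shown as the most G-rich of the 6, at 35.4% and 36.9% G, with runs of 2 or more G in capitals (RefSeq, GRCh38.p14).
MIR92B: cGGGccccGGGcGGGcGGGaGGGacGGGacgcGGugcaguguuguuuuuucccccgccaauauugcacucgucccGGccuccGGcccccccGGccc
MIR25: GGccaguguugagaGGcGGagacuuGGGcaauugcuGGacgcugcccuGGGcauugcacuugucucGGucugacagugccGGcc
MIR92B had 10 such runs and MIR25 had 8, against 6 in MIR92A1, 4 each in MIR92A2 and MIR363, and 2 in MIR32. Of the 6, MIR92B alone held 4 runs of 2 or more G spaced by 1 to 7 bases on the transcribed strand, a pattern present in 456 of 1560 hairpins (29.2%). MIR32, the least G-rich at 22.9%, gave both members with the lowest G and C content. The hairpin pattern was looked at after the values were known.

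The members were then set beside the other miRNAs cut from the same clusters, which also hold the miR-17, miR-18 and miR-19 families. Of 23 listed cluster mates, 13 were tested, 0 were enriched, 11 were depleted and 2 did not pass the test, with a median log2 ratio of -2.92 against -0.07 over all tested miRNAs. The background shares were 23.5% enriched and 29.2% depleted. Of the 13, 5 were over the filter's cut-off in fewer than 3 m7G-RIP libraries and so passed through total RNA. They were hsa-miR-17-3p, hsa-miR-19a-3p, hsa-miR-19b-3p, hsa-miR-20b-5p and hsa-miR-106b-5p. For these the filter itself favours a low ratio, so their calls are given as a description. With at least 10 counts in every library, 7 mates were left and 5 of them were depleted, against 37% of 359 miRNAs, and the median log2 ratio of the 7 was -2.10. Of the mates of MIR92A1 in MIR17HG, 6 of 7 tested were depleted, among them hsa-miR-17-3p, hsa-miR-19a-3p and hsa-miR-19b-3p, which passed through total RNA. The 7 ran from hsa-miR-18a-3p at 46.3 ± 2.58 and 47.2 ± 5.58 CPM (log2 ratio 0.03, edgeR adjusted p = 0.920) to hsa-miR-19b-3p. The latter stood at 155.8 ± 12.4 and 1.36 ± 0.682 CPM (log2 ratio -6.82, SE 0.34), with 2, 6 and 6 counts in m7G-RIP. hsa-miR-19a-3p had 306, 306 and 243 counts in total RNA and 1 count in each m7G-RIP library. For each count of hsa-miR-20a-5p, the most abundant mate, there were 30.1, 31.9 and 43.3 counts of hsa-miR-92a-3p in total RNA and 602, 485 and 635 in m7G-RIP, a ratio free of scaling.

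In the miR-106b-25 cluster, 3 of 4 tested mates were depleted, against a background of 29.2%. Among the 3 was hsa-miR-106b-5p, which passed through total RNA. hsa-miR-106b-3p, at 1295 ± 115 and 1461 ± 198 CPM, did not pass the test (log2 ratio 0.17, edgeR adjusted p = 0.296). Its opposite arm hsa-miR-106b-5p stood at 78.6 ± 16.4 and 2.19 ± 1.37 CPM (log2 ratio -5.17), with 5, 12 and 5 counts in m7G-RIP. hsa-miR-25-3p, at -0.14, and the enriched hsa-miR-25-5p, at 1.48, came from the same transcript. In the miR-106a-363 cluster all 3 tested mates were depleted, against a background of 29.2%. This count is a description, since hsa-miR-19b-3p and hsa-miR-20b-5p passed through total RNA. The third, hsa-miR-106a-5p, had 8, 13 and 11 counts in m7G-RIP. Log2 ratios ran from hsa-miR-106a-5p at -2.42 to hsa-miR-19b-3p, which both X-linked and MIR17HG hairpins encode. hsa-miR-363-3p, at -3.01 and also tested through total RNA alone, lay between them. Its opposite arm hsa-miR-363-5p had 4, 8 and 0 counts in total RNA and 0 in each m7G-RIP library. Near-identical mates of the clusters, such as miR-17-5p with miR-106a-5p and miR-20a-5p with miR-20b-5p, may share reads, and their values are uncertain to that extent. Library size alone called 2 cluster mates enriched, and library sizes without the 10 most abundant miRNAs called 1.

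**Figure D5:**
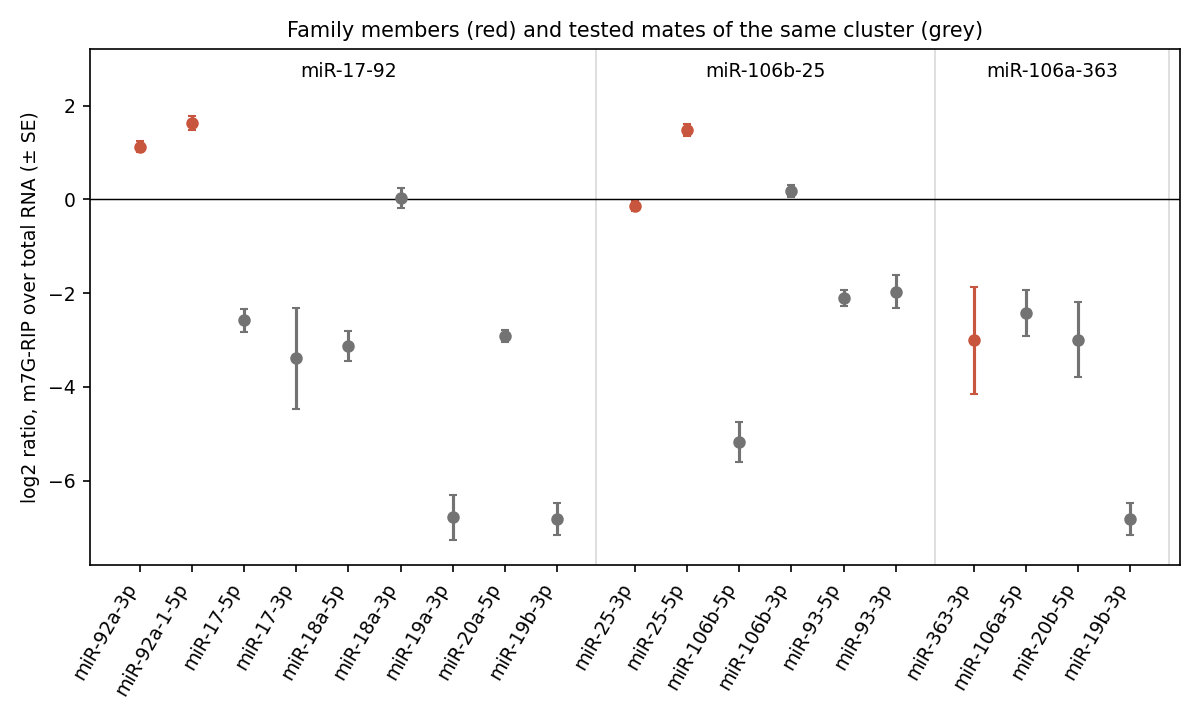
Log2 ratio of m7G-RIP over total RNA (points with SE) for family members (red) and tested mates of the same cluster (grey). miR-92a-3p, miR-92a-1-5p and miR-25-5p lie above their tested mates, while miR-363-3p at -3.01 lies among its mates. The value of miR-19a-3p rests on 1 count in each m7G-RIP library. miR-363-3p and the mates miR-17-3p, miR-19a-3p, miR-19b-3p, miR-20b-5p and miR-106b-5p passed the filter through total RNA.

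Over the 6 libraries, the tested miRNAs whose levels followed hsa-miR-92a-3p most closely were hsa-miR-328-3p, hsa-let-7c-5p and hsa-let-7b-3p, with root mean square differences of centred log2 CPM of 0.0937, 0.106 and 0.123. Those nearest to hsa-miR-25-3p were hsa-let-7i-5p, hsa-miR-16-2-3p and hsa-let-7g-5p, at 0.0400, 0.0799 and 0.115. This distance includes the difference between the 2 groups, so it favours miRNAs with a similar log2 ratio. In the order named, log2 ratios were 1.24, 1.19 and 1.23 for the first 3 and -0.13, -0.14 and 0.03 for the others. Only miRNAs outside the family were searched.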

How the data were processed

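Small RNA libraries of 3 total RNA and 3 m7G-RIP samples were grouped by their titles. The deposited values are raw counts, 1 per mature miRNA and library. Per the authors' methods, reads were trimmed with Trimmomatic, aligned to GRCh38 with STAR (at most 1 mismatch and 10 loci) and counted with featureCounts on miRBase annotation, whereas the submitters' processing notes name Bowtie2. Versions, and how reads with several alignments were counted, are not given in the sources used here.

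Testing used edgeR 4.0.16 under R 4.3.3 (TMM scaling, default expression filter by group, robust quasi-likelihood F test, two-sided, Benjamini-Hochberg adjustment over 620 miRNAs, threshold 0.05). The script was tested on simulated data. Ratios between members were computed per library with 0.5 added to each count and compared by exact permutation tests in Python with scipy 1.17.1. Alternatives changed the scaling, the filter, the threshold, the tool (DESeq2 1.42.0, limma-voom 3.58.1), the replicate block and the libraries used. Sequences and hairpins came from RefSeq (2281 of 2588 names matched), host genes from GENCODE release 44. Depth was 2649238 to 10753443 counts per library, and intervals cover counting error only.

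All members are named, as are the cluster mates with the highest and lowest log2 ratio of each cluster and the 3 miRNAs nearest to miR-92a-3p and miR-25-3p. hsa-miR-17-3p, hsa-miR-19a-3p, hsa-miR-20a-5p, hsa-miR-20b-5p and the hairpin pattern were added after their values were seen. Members and lists were chosen with earlier results of these data known.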

Additional observations from a re-analysis of the deposited data

How the results depend on the processing

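The 5 enriched members were enriched under every alternative run, and 6 were with library size alone or with library sizes taken without the 10 most abundant miRNAs. Without 1 library, 5 were enriched each time, with log2 ratios of 0.81 to 1.15 for miR-92a-3p, 1.19 to 1.63 for miR-92b-3p, 1.40 to 1.67 for miR-92a-1-5p, 1.24 to 1.48 for miR-25-5p and 0.64 to 1.00 for miR-92b-5p. The number of depleted members was less stable. It was 1 in the reported fit, 2 with DESeq2 size factors in edgeR, with TMM computed without the members, with the DESeq2 Wald test and with limma-voom, 3 with no filter, 0 with a minimum of 10 counts per library or an adjusted p under 0.01, and 0 to 4 without 1 library. miR-25-3p was among the depleted members with no filter and without m7G-RIP replicate 1, 2 or 3. The log2 ratio of miR-25-3p turned to 0.41 with library size alone and to 0.31 without the 10 most abundant miRNAs, which moved the median of all miRNAs by 0.55 and 0.45. The cause was not tested.

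Enriched cluster mates numbered 2 with library size alone, 1 without the 10 most abundant miRNAs and 0 otherwise. Depleted ones, 11 in the reported fit, numbered 5 with a minimum of 10 counts per library and 10 with the replicate block. They numbered 9 at an adjusted p under 0.01 and 9 to 11 without 1 library. The ratio of miR-32-3p to miR-32-5p moved to 2.34 with 2 added to each count, since miR-32-5p was at 0 in 2 m7G-RIP libraries. The difference in the share of the seed family was 10.6 points without miR-21-5p, against 16.0. Over all miRNAs, 98 to 216 were enriched and 133 to 219 depleted with all libraries in, and 116 to 134 and 149 to 245 without 1 library. A minimum of 10 counts per library gave no value for miR-32-5p, miR-32-3p and miR-363-3p, and miR-363-3p had none without total RNA replicate 2 or 3.

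No pairing by replicate number was assumed, since deviations of same-numbered libraries correlated at -0.0433, -0.101 and 0.0641. With the replicate block, 5 members were enriched and 1 was depleted, and the log2 ratios were 1.12 for miR-92a-3p, 1.58 for miR-92b-3p, -0.15 for miR-25-3p and -3.65 for miR-363-3p (edgeR adjusted p = 0.0663). Counts of 0 to 28 per m7G-RIP library limit what can be said of miR-32-5p, miR-32-3p and miR-363-3p.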

Other observations

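Across the 557 tested miRNAs with a sequence, 13 seed families had at least 3 members. The miR-25/92 seed had the widest span of log2 ratios, 5.38 against a median of 2.37. That span rested on hsa-miR-32-5p and hsa-miR-363-3p, which had 7 counts each in all m7G-RIP libraries together. With a minimum of 10 counts per library, 3 members remained, their span was 1.73, and it ranked 7 of 10 families with a median of 2.03. The same 557 miRNAs held 66 pairs of equal length with the same seed and at most 4 differing bases. In these pairs the median absolute difference in log2 ratio was 0.69 and the largest was 3.22. The difference between hsa-miR-92a-3p and hsa-miR-25-3p was 1.26, and 18 pairs differed by more. The pairs drew on 52 miRNAs and share members, so they are not independent. Both comparisons were chosen after the data had been seen.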
